A study of Homo sapiens with 16 samples.

Results

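ARFGAP1, ARFGAP2 and ARFGAP3 encode GTPase-activating proteins for the ARF family of small GTPases. These 3 genes, of 61906 in the transcript tables, hold 59 of the 251295 transcripts listed. ARFGAP2 was chosen by its measured transcript usage after HNRNPH1 depletion, the values described here for it under siHNRNPH1 and siNegative, and ARFGAP1 and ARFGAP3 were added as its closest family members by name. The values of ARFGAP2 between the siRNAs are therefore a description with no test, while ARFGAP1 and ARFGAP3 were tested with p-values adjusted over the whole table. Results of these data were known when the family was picked, so those p-values are not independent of the choice. ARFGAP1 (ENSG00000101199.13) has 23 listed transcripts, of which 5 were at 0 in all 12 short-read libraries. ARFGAP2 (ENSG00000149182.15) has 30, of which 1 was at 0 throughout, and ARFGAP3 (ENSG00000242247.11) has 6, all with counts.

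The cells were HEK-293T, a human embryonic kidney line transformed to express SV40 large T antigen, and a human fibrosarcoma line, HT-1080. Each line received 20 nM of an siRNA against HNRNPH1 (siHNRNPH1) or a negative control siRNA (siNegative) with a lipid reagent, and RNA was taken 48 h later. Short-read RNA-seq gave 12 libraries, 3 biological replicates per line and siRNA, and full-length cDNA sequencing (IsoSeq) gave 4 pools, 1 per line and siRNA. The labels name 1 siRNA treatment against HNRNPH1 and no second, independent one.

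ARF proteins recruit coats to membranes when bound to GTP, and ArfGAP proteins stimulate hydrolysis of that GTP through a zinc-finger catalytic domain. ARFGAP1 carries lipid-packing sensor motifs that bind curved membrane. ARFGAP2 and ARFGAP3 resemble the yeast protein Glo3 and bind coatomer. Coatomer is the COPI coat of vesicles that return proteins from the Golgi to the endoplasmic reticulum. HNRNPH1 is an RNA-binding protein that prefers G-rich sequence and takes part in the choice of exons during splicing.

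Total expected counts per library were 107.7 to 121.0 M (mega) in HEK-293T and 27.3 to 32.7 M in HT-1080. HNRNPH1 stood at 1107, 1105 and 1121 CPM (counts per M of the library total) in the siNegative HEK-293T libraries and at 234, 376 and 394 CPM in those labelled siHNRNPH1. In HT-1080 it stood at 635, 606 and 617 CPM with siNegative and at 231, 231 and 228 CPM with siHNRNPH1, so the groups were apart in both lines. The first replicate of HEK-293T siHNRNPH1 stands apart from the other libraries of its group: the chi-square of its gene counts, per degree of freedom, was 810.5 and 847.3 against replicates 2 and 3, which gave 9.10 against each other. Main short-read values that rest on this library are given with and without it. The labels call each IsoSeq sample pooled replicates. The depleted HEK-293T pool may therefore hold this replicate, and its values cannot be given without it. Of the HT-1080 markers CD44, CAV1, PLAU, MMP14 and S100A6, all were between 161 and 3037 CPM in HT-1080 group means and at most 6.78 CPM in HEK-293T. Of the HEK-293T markers, NEFM (258 CPM with siNegative, against 0.011 in HT-1080), LIN28B (178 against 23.3 CPM) and SALL4 (5.22 against 0.368 CPM) were higher in HEK-293T, PAX2 was low in both (1.34 and 0.394 CPM), and LHX1 was higher in HT-1080 (13.4 against 3.84 CPM).

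ARFGAP2 was lower at the gene level in the depleted libraries of both lines, and its make-up by transcript differed. In siNegative HEK-293T the gene stood at 107.7, 101.2 and 106.6 CPM, and in siHNRNPH1 at 68.8, 48.5 and 48.1 CPM. In HT-1080 it stood at 70.3, 71.8 and 68.3 CPM with siNegative and at 37.8, 36.9 and 38.7 CPM with siHNRNPH1. Every siHNRNPH1 library was below every siNegative library of its line. In bulk RNA, fewer cells with a transcript and less of it per cell cannot be told apart. The order of group means was HEK-293T siNegative (105.2 ± 3.46 CPM, SD, n = 3), HT-1080 siNegative (70.1 ± 1.73), HEK-293T siHNRNPH1 (55.1 ± 11.9) and HT-1080 siHNRNPH1 (37.8 ± 0.894). HT-1080 siNegative and HEK-293T siHNRNPH1 overlap, through the HEK-293T library that stands apart, and the other neighbours do not. The log2 fold change of the gene was -0.95 (SE 0.20) in HEK-293T. In HT-1080 it was -0.96 (SE 0.05), beside medians over all genes tested of 0.02 and 0.01. Without the deviating library the HEK-293T value was -1.18. At the gene level, 10.0% of the genes tested in HEK-293T and 65.3% of those tested in HT-1080 passed an adjusted p of 0.05. In HEK-293T without the deviating library 61.8% passed. The contrast is the one that chose the gene, so nothing is read from where ARFGAP2 lies among these shares.

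**Figure D1:**
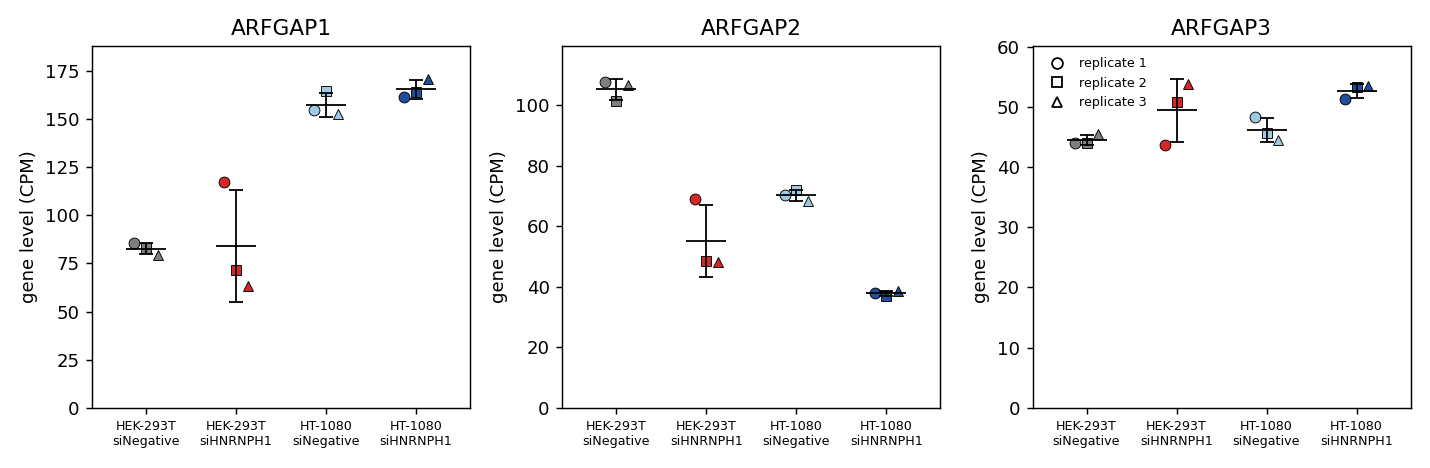
Gene level (vertical axis, CPM) of ARFGAP1, ARFGAP2 and ARFGAP3 in the 4 short-read groups. Each symbol is 1 library, with its shape giving the replicate, and bars give the mean ± SD of 3 libraries. ARFGAP2 was at 48.1 to 107.7 CPM in HEK-293T and 36.9 to 71.8 CPM in HT-1080, with every siHNRNPH1 library below the siNegative libraries of its line. In each gene 1 HEK-293T siHNRNPH1 library (circle) lies away from the others of its group.

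Of the 30 ARFGAP2 transcripts, 2 held most counts. ENST00000524782.6 took 90.1, 88.6 and 88.1% of the gene's expected counts in siNegative HEK-293T and 35.4, 37.3 and 37.0% in siHNRNPH1. In HT-1080 its share was 84.2, 86.2 and 84.8% with siNegative and 67.4, 75.0 and 66.3% with siHNRNPH1. The share of this main transcript was lower in every depleted library of both lines, and its mean differed from siNegative by -52.4 percentage points in HEK-293T and by -15.5 points in HT-1080.

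The variant with the higher share after depletion, ENST00000627920.2, took 2.26, 3.49 and 3.09% of ARFGAP2 in siNegative HEK-293T and 59.3, 45.3 and 47.0% in siHNRNPH1. In HT-1080 it took 0.893, 1.57 and 0.997% with siNegative and 12.3, 10.2 and 15.1% with siHNRNPH1. In each depleted library of HEK-293T it exceeded the main transcript, and in each depleted HT-1080 library it stayed below it. The difference of means was 47.5 points in HEK-293T (43.2 without the deviating library) and 11.4 points in HT-1080. The test of transcript usage (limma diffSplice, a Simes p per gene) called 9.59% of genes in HEK-293T, 41.6% there without the deviating library, and 21.2% in HT-1080. ARFGAP2 was picked from that test, and its p is not given.

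The variant was higher in level too, not in share alone. In HEK-293T it went from 3.09 ± 0.575 to 28.4 ± 10.7 CPM, and in HT-1080 from 0.813 ± 0.275 to 4.76 ± 1.05 CPM (mean ± SD, n = 3). In the depleted HEK-293T libraries it stood at 40.8, 21.9 and 22.6 CPM, with the highest value in the deviating library. Behind these levels were 271 to 410 expected counts per siNegative library and 2436 to 4395 per siHNRNPH1 library in HEK-293T, but 17.1 to 34.01 and 123 to 167 in HT-1080, so the HT-1080 control share rests on few counts. The main transcript was at 93.5 ± 3.68 and 20.1 ± 3.68 CPM in HEK-293T, and at 59.7 ± 2.01 and 26.3 ± 1.203 CPM in HT-1080. The larger difference in the variant in HEK-293T thus stood beside a larger difference, of opposite sign, in the main transcript. With the variant set aside, the rest of ARFGAP2 summed to 102 ± 3.92 CPM and 26.7 ± 1.26 CPM in HEK-293T and to 69.3 ± 1.53 and 33.0 ± 0.200 CPM in HT-1080. The sum without the variant was lower in depleted HEK-293T than in depleted HT-1080, although the siNegative order was the reverse. The other 28 transcripts together held 8.12 and 12.9% of the gene in HEK-293T, and 13.7 and 17.9% in HT-1080.

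**Figure D2:**
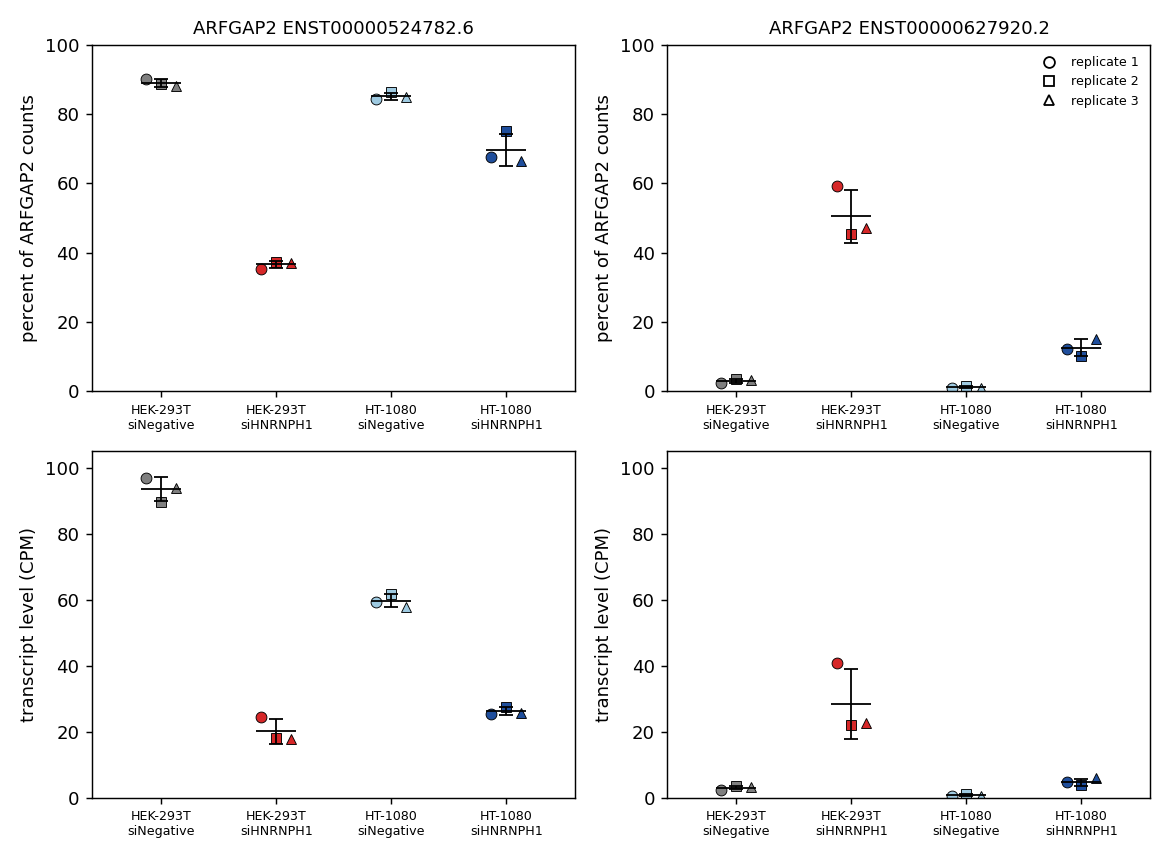
The 2 leading ARFGAP2 transcripts in the 12 short-read libraries, as percent of the gene's expected counts (top) and as level in CPM (bottom); symbols are libraries, shapes replicates, and bars the mean ± SD of 3. ENST00000524782.6 was at 88.9 and 36.6% in HEK-293T, siNegative and siHNRNPH1, and at 85.1 and 69.6% in HT-1080, while ENST00000627920.2 reached 50.5 and 12.5%.

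The lines already differed in ARFGAP2 with siNegative, a comparison that uses no depleted library. The siNegative libraries were part of the contrast that chose the gene, so the p-values given here are not independent of that choice. ENST00000627920.2 took 2.95 ± 0.625% of the gene in HEK-293T and 1.15 ± 0.367% in HT-1080 (SD, n = 3), and the groups did not overlap. Relative to the other transcripts of the gene its log2 difference, HT-1080 minus HEK-293T, was -1.49 (limma diffSplice adjusted p = 0.00147), and that of ENST00000524782.6 was -0.58 (limma diffSplice adjusted p = 0.00149). At the level of the gene, ARFGAP2 usage differed between the control lines with a limma diffSplice adjusted p of 1.37e-10, where 73.4% of genes tested passed. The gene's level was lower in HT-1080 by a log2 difference of -0.33 (SE 0.04, edgeR quasi-likelihood adjusted p = 5.80e-05), where 86.6% of genes passed and the median over all genes was -0.10. With most genes past the threshold, these calls set ARFGAP2 apart from few others, and line cannot be told apart from depth, which differs between the lines.

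The IsoSeq files give exon positions of transcript models (GRCh38.p13 is the build in the submitters' processing notes) and no read counts, so a rare and an abundant model weigh the same. With 1 pool per group there is no replicate check and no test. The ARFGAP2 models lie on the minus strand of chr11:47164247-47178046. There were 9 and 19 models in the siNegative and siHNRNPH1 pools of HEK-293T, and 12 and 10 in those of HT-1080, among 64705, 94847, 72186 and 68078 models in all. The gene has 16 exons when exons in at least 10% of its models are counted, numbered here from the 5′ end. RefSeq places CSTPP1 over part of the same region. The strandedness of the short-read counting is not given in the sources used here, and how far reads of that gene were counted as ARFGAP2 was not tested.

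Exons 3 to 8 of ARFGAP2 were left out of a larger share of models in the depleted pools, other than exon 5 in HT-1080. Exon 7 (57 nt, chr11:47173426-47173482) was skipped in 2 of 8 siNegative and 13 of 17 siHNRNPH1 models that span it in HEK-293T, 25.0% and 76.5% (exact Clopper-Pearson 95% intervals 3.19 to 65.1% and 50.1 to 93.2%, counting error only). In HT-1080 it was skipped in 3 of 9 and 7 of 9, 33.3% and 77.8% (7.49 to 70.1% and 40.0 to 97.2%). The intervals overlap in both lines, and the shares in the depleted pools of the lines were close.

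Exon 6 (82 nt, chr11:47173759-47173840) was skipped in 3 of 8 and 12 of 17 models in HEK-293T and in 3 of 9 and 6 of 9 in HT-1080. Exon 8 (53 nt, chr11:47172281-47172333) was in every siNegative model that spans it, 8 in HEK-293T and 10 in HT-1080, and was skipped in 8 of 17 and 3 of 9 siHNRNPH1 models. A count of 0 in 8 allows up to 36.9%, and 0 in 10 up to 30.8%, at the same interval level. Exons 6 and 7 were thus partly skipped without depletion, and exon 8 was skipped in the depleted pools and in no siNegative model.

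Upstream of these, exon 4 (132 nt, chr11:47175182-47175313) was skipped in 0 of 9 siNegative and 9 of 19 siHNRNPH1 models in HEK-293T and in 1 of 10 and 3 of 10 in HT-1080. Exon 5 (84 nt, chr11:47175015-47175098) was skipped in 0 of 9 and 11 of 19 models in HEK-293T, but in 3 of 10 with either siRNA in HT-1080, so the lines part at this exon. Exon 3 (73 nt, chr11:47175851-47175923) was skipped in 0 of 9 and 5 of 19 in HEK-293T and in 0 of 9 and 1 of 10 in HT-1080. Downstream, exons 9 and 10 were each skipped in 3 of 17 and exons 11 and 12 in 2 of 17 depleted HEK-293T models, and in no model of the other 3 pools. Exons 2, 13, 14 and 15 were skipped in none of the models that span them in any pool.

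**Figure D3:**
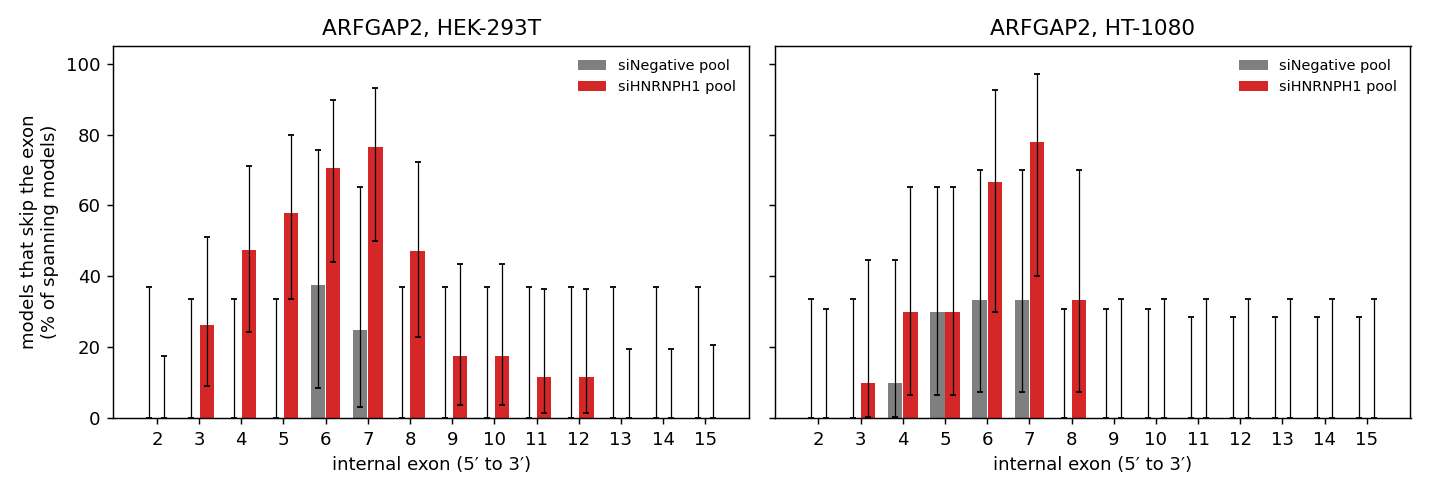
Share of ARFGAP2 IsoSeq models that skip each internal exon, in percent of the models that span it, for exons 2 to 15 in the siNegative and siHNRNPH1 pools of each line. Whiskers are exact Clopper-Pearson 95% intervals for counting error only, and bars at 0 have a whisker alone. Skipping in the depleted pools is highest at exon 7 (76.5 and 77.8%) and falls off to either side.

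Where a model lacked several internal exons, these were neighbours, removed as a block, and 6 models lacked 1 exon alone (5, 6 or 7), 3 of them with siNegative. A model was taken to span exons 2 to 15 if it overlapped or skipped each of these 14 internal exons. It may therefore end inside exon 2 or exon 15. Spanning models that lack at least 3 of these exons numbered 0 of 8 in siNegative and 11 of 17 in siHNRNPH1 HEK-293T (64.7%, exact interval 38.3 to 85.8%). In HT-1080 they numbered 1 of 8 and 4 of 9. The most exons missing from 1 model was 2 and 10 in HEK-293T and 4 and 6 in HT-1080. Models with every internal exon were 5 of 8 and 3 of 17 in HEK-293T and 3 of 8 and 2 of 9 in HT-1080. Loss of exons 6 and 7 together (139 nt) appeared in all 4 pools, with siNegative too. Loss of exons 4 to 7 (355 nt) appeared in depleted HEK-293T and in both HT-1080 pools.

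Blocks that take in exon 8 were found in the depleted pools of both lines and in no siNegative model: exons 6 to 8 (192 nt), exons 4 to 8 (408 nt) and exons 3 to 8 (481 nt). The junction that joins exon 3 to exon 9 over exons 4 to 8 has its intron at chr11:47171801-47175850, and was in 2 of 17 and 1 of 9 depleted models. The longest block, exons 3 to 12 (1014 nt), was in 2 depleted HEK-293T models, whose exon 2 is joined to exon 13. Of the 11 depleted HEK-293T models that lack at least 3 exons, the bases lost were a multiple of 3 in 7, and of the 4 such HT-1080 models in 2. Exonic length of the spanning models was 2593 to 3936 nt (median 2779) in siNegative and 551 to 2910 nt (median 2546) in siHNRNPH1 HEK-293T. The model of 551 nt had 5 exons. The other model without exons 3 to 12 had 6 exons and 1761 nt, so the shortest length is not given by skipping alone.

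**Figure D4:**
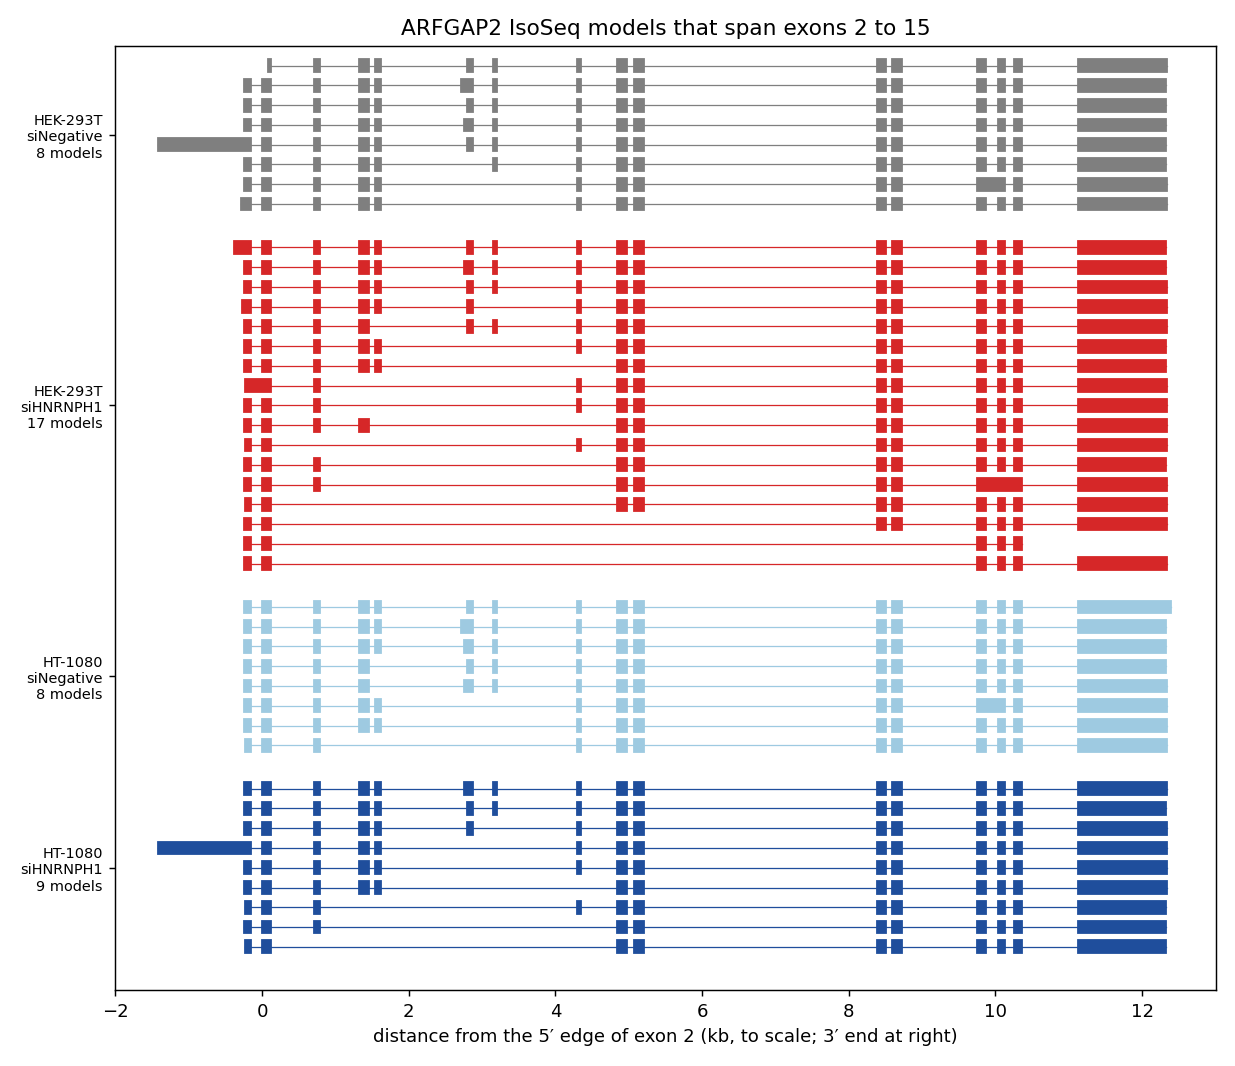
ARFGAP2 IsoSeq models that span exons 2 to 15, 1 line per model, in the 4 pools (8, 17, 8 and 9 models), drawn to scale by distance from the 5′ edge of exon 2 in kb, with boxes for exons and lines for introns. Within a pool, models are ordered by the number of internal exons missing; in the depleted pools the gap opens around exons 6 and 7 and widens to both sides, whereas exon 2 and exons 13 to 15 are retained.

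Junctions between adjacent exons are another count of the same models, so they are no separate check on the exon skipping. Those named here were kept only if they moved the same way in both lines, so that agreement is no finding. Among models that span it, the intron between exons 7 and 8 (chr11:47172334-47173425) was joined in 75.0 and 23.5% in HEK-293T and in 70.0 and 22.2% in HT-1080, siNegative and siHNRNPH1. The intron between exons 8 and 9 (chr11:47171801-47172280) was joined in all siNegative models of either line that span it, and in 52.9 and 66.7% of the depleted ones. The intron between exons 6 and 7 (chr11:47173483-47173758) was joined in 62.5 and 23.5%, and in 66.7 and 22.2%. Those between exons 3 and 4 (chr11:47175314-47175850) and between exons 2 and 3 (chr11:47175924-47176515) differed by -41.5 and -20.5 points in HEK-293T, and by -18.9 and -10.0 points in HT-1080. Exon 6 itself came in 3 lengths. The 157 nt form, which is preceded by the intron at chr11:47173916-47175014, was in 1 siNegative model of each line and in no depleted model, and the 82 nt form was in 3, 4, 3 and 2 models of the HEK-293T siNegative, HEK-293T siHNRNPH1, HT-1080 siNegative and HT-1080 siHNRNPH1 pools.

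The tables do not pair Ensembl transcripts with exon positions, and no annotation of the transcripts was used here, so whether ENST00000627920.2 is one of the block-skipping models was not tested. The HEK-293T siHNRNPH1 pool also holds the most models in all, which moves with the count of its distinct ARFGAP2 structures, and the part of depth in that count was not tested.

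ARFGAP1 shifted among transcripts in HEK-293T, and its gene level depended on 1 library. In HEK-293T it stood at 85.4, 83.1 and 79.7 CPM with siNegative and at 117.3, 71.5 and 63.1 CPM with siHNRNPH1, where the deviating library is above all controls and the other two are below them. The log2 fold change was 0.01 (SE 0.27, edgeR quasi-likelihood adjusted p = 0.988), and without that library -0.35 (SE 0.05, edgeR quasi-likelihood adjusted p = 9.92e-06). In HT-1080 it stood at 154.6, 164.4 and 152.6 CPM with siNegative and at 161.3, 164.3 and 171.0 CPM with siHNRNPH1, overlapping groups with a log2 fold change of 0.01 (SE 0.05, edgeR quasi-likelihood adjusted p = 0.918). By mean, the HT-1080 groups (166 ± 4.94 and 157 ± 6.31 CPM, siHNRNPH1 and siNegative) overlapped each other, as did those of HEK-293T (84.0 ± 29.2 and 82.7 ± 2.90 CPM), and all HT-1080 libraries were above all HEK-293T libraries. The difference of response, HT-1080 minus HEK-293T, was -0.08 (SE 0.31, edgeR quasi-likelihood adjusted p = 0.921) in a test that called 19.0% of genes. Without the deviating library it was 0.31 (SE 0.08, edgeR quasi-likelihood adjusted p = 0.00246).

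The leading ARFGAP1 transcript, ENST00000370283.9, took 58.8, 60.2 and 60.9% of the gene in siNegative HEK-293T and 40.3, 32.2 and 28.6% in siHNRNPH1. Every depleted library was below the controls, and relative to the rest of the gene the log2 change was -1.30 (limma diffSplice adjusted p = 0.0139). ENST00000519273.6 rose from 5.54, 5.15 and 4.53% to 9.73, 20.8 and 25.2%, a relative log2 change of 1.75 (limma diffSplice adjusted p = 0.00578). ENST00000468975.6 rose from 0.656, 0.328 and 1.07% to 19.6, 7.13 and 6.76%, a relative log2 change of 3.97 (limma diffSplice adjusted p = 5.63e-07), with its highest share in the deviating library. Without that library the shares of the 3 transcripts differed from siNegative by -29.6, 17.9 and 6.26 points. Usage of the gene had a limma diffSplice adjusted p of 1.46e-06, and 1.15e-19 without that library. ENST00000518794.6 went from 7.88 to 12.9% with no overlap of the groups, but its limma diffSplice adjusted p was 0.633, and 1.30e-04 without the deviating library. ENST00000395285.3 took 9.31 and 7.86%, with a limma diffSplice adjusted p of 0.669, and 0.0135 without that library. ENST00000519531.5 took 7.91 and 6.88%, a difference of -1.03 points that became 0.97 points without that library, and passed neither way (limma diffSplice adjusted p = 0.585 and 0.953). The other 17 transcripts summed to 9.14 and 8.96%.

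In HT-1080 the same pair of leading changes was smaller in points, and the difference from HEK-293T was not tested. ENST00000370283.9 took 42.1, 35.4 and 37.9% with siNegative and 32.1, 32.9 and 32.7% with siHNRNPH1, a relative log2 change of -0.37 (limma diffSplice adjusted p = 0.0487). ENST00000519273.6 rose from 5.74, 5.69 and 6.62% to 9.21, 12.1 and 8.93%, a relative log2 change of 0.78 (limma diffSplice adjusted p = 0.00630). Both shares lay apart from the controls, but for each the exact two-sided permutation p of 3 libraries against 3 was 0.1, the smallest that design allows. ENST00000468975.6 took 13.9 ± 5.33% with siNegative and 13.7 ± 0.690% with siHNRNPH1 (SD, n = 3), overlapping groups. The gene passed the usage test with a limma diffSplice adjusted p of 0.0157. It did not pass with edgeR's diffSpliceDGE (adjusted p = 0.910). Nor did it pass without siNegative replicate 1 (limma adjusted p = 0.0651), siNegative replicate 3 (limma adjusted p = 0.0558) or siHNRNPH1 replicate 2 (limma adjusted p = 0.183). Over all genes the HT-1080 usage calls fell too, from 2278 to 577 with diffSpliceDGE and to 1857, 1766 and 1554 without these libraries. The HT-1080 call was thus not kept in all settings.

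**Figure D5:**
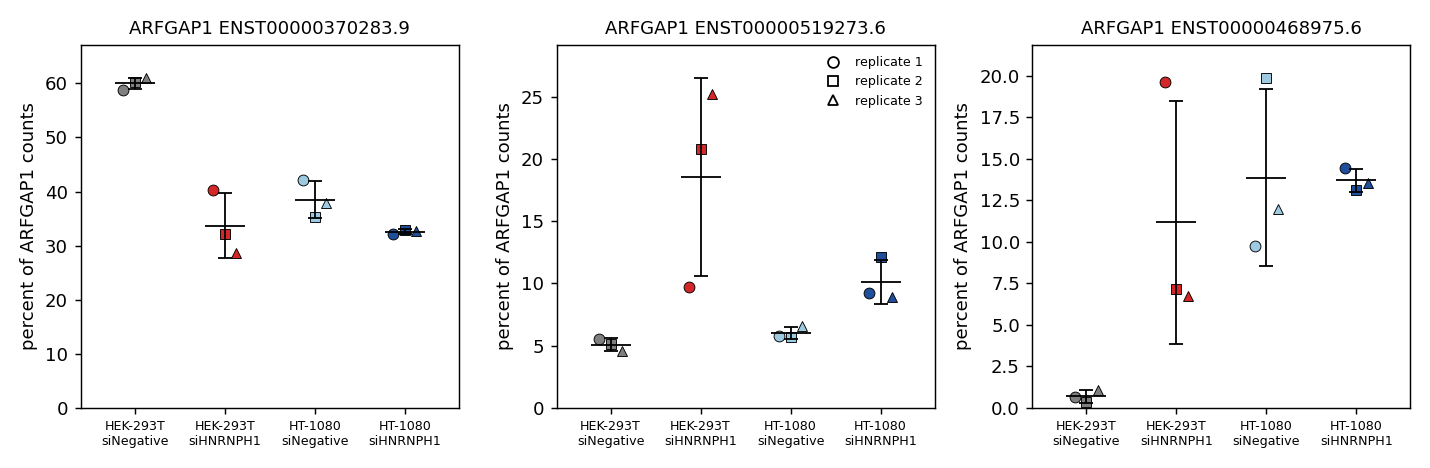
Share of 3 ARFGAP1 transcripts in the gene's expected counts (vertical axes, percent, each with its own range) in the 12 short-read libraries; symbols are libraries, shapes replicates, and bars the mean ± SD of 3. ENST00000370283.9 fell from 60.0 to 33.7% in HEK-293T, and in HT-1080 from 38.5 to 32.6%, and ENST00000519273.6 rose from 5.07 to 18.6% and from 6.01 to 10.1%; ENST00000468975.6 was near 0 in siNegative HEK-293T only.

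ARFGAP1 differed between the control lines in level and make-up. It was higher in HT-1080 by a log2 difference of 1.18 (SE 0.05, edgeR quasi-likelihood adjusted p = 5.77e-09). ENST00000468975.6 was higher there relative to the other transcripts by 4.50 on the log2 scale (limma diffSplice adjusted p = 7.11e-21) and ENST00000370283.9 lower, at -1.16 (limma diffSplice adjusted p = 2.71e-13). In group means, the share of ENST00000370283.9 in depleted HEK-293T was 33.7% (30.4% without the deviating library), beside 38.5 and 32.6% in HT-1080. For ENST00000468975.6 it was 11.2% (6.94% without that library), beside 13.9 and 13.7%. The share of ENST00000519273.6, 18.6% (23.0% without that library), was above the 6.01 and 10.1% of HT-1080.

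The IsoSeq pools held 14, 10, 17 and 19 ARFGAP1 models (HEK-293T siNegative and siHNRNPH1, HT-1080 siNegative and siHNRNPH1) on the plus strand of chr20:63272787-63289817. Exon 9, counted as in ARFGAP2 (57 nt, chr20:63281291-63281347), was skipped in 2 of 7 depleted HEK-293T models and in 0 of 11, 0 of 14 and 0 of 18 models of the others. Exon 6 (101 nt, chr20:63277205-63277305) was skipped in 2 of 10 and 3 of 7 models in HEK-293T and in 1 of 14 and 3 of 18 in HT-1080. The introns on both sides of exon 6, chr20:63276652-63277204 and chr20:63277306-63278116, were joined in fewer depleted models, with differences of -12.9 and -15.6 points in HEK-293T, and of -24.6 and -11.9 points in HT-1080. So was the intron after exon 9, chr20:63281348-63282818, with -15.9 and -16.7 points. All of these shares had wide, overlapping intervals. Models lacking at least 3 internal exons were 1 of 8 and 3 of 7 in HEK-293T and 1 of 13 and 1 of 17 in HT-1080. Each of these lacked exon 2 (211 nt), which most models lack with either siRNA. The junction over exon 2 alone was in 8 of 8 and 5 of 7 models in HEK-293T, and in 11 of 13 and 16 of 17 in HT-1080. The count is therefore not like that of ARFGAP2.

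ARFGAP3, the nearer relative of ARFGAP2, kept its transcript make-up within the spread of the libraries. Its main transcript ENST00000263245.10 took 94.2% of the gene with either siRNA in HEK-293T and 95.5 and 94.9% in HT-1080. ENST00000453516.5 took 5.39 and 5.59% in HEK-293T and 4.30 and 4.83% in HT-1080, and all groups overlapped (exact two-sided permutation p = 0.6 to 0.8). The other 4 transcripts summed to at most 0.460%. Usage of the gene had a limma diffSplice adjusted p of 0.974 in HEK-293T, 0.816 in HT-1080 and 0.234 between the control lines.

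The level of ARFGAP3 was 44.1, 44.0 and 45.5 CPM in siNegative HEK-293T and 43.7, 50.8 and 53.9 CPM in siHNRNPH1, a log2 fold change of 0.12 (SE 0.12, edgeR quasi-likelihood adjusted p = 0.545). Without the deviating library, the lowest of the 6, it was 0.18 (SE 0.04, edgeR quasi-likelihood adjusted p = 4.28e-04). In HT-1080 it was 48.4, 45.7 and 44.5 CPM with siNegative and 51.3, 53.3 and 53.4 CPM with siHNRNPH1. There the groups did not overlap, and the log2 fold change of 0.12 (SE 0.05) missed the threshold (edgeR quasi-likelihood adjusted p = 0.0556). It passed when libraries were scaled by their totals alone (0.19, edgeR quasi-likelihood adjusted p = 0.00801), without siNegative replicate 1 (edgeR adjusted p = 0.0465) and without siNegative replicate 2 (edgeR adjusted p = 0.0188). The response did not differ between the lines past the threshold (difference -0.07, SE 0.11, edgeR quasi-likelihood adjusted p = 0.728). Between the control lines ARFGAP3 was higher in HT-1080 by a log2 difference of 0.31 (SE 0.05, edgeR quasi-likelihood adjusted p = 1.46e-04), which scaling by library totals alone reduced to 0.05 (edgeR adjusted p = 0.303). Group order by mean was HT-1080 siHNRNPH1 (52.7 ± 1.18 CPM), HEK-293T siHNRNPH1 (49.5 ± 5.22), HT-1080 siNegative (46.2 ± 2.02) and HEK-293T siNegative (44.5 ± 0.854), with each neighbour overlapping the next.

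IsoSeq held 3, 9, 7 and 11 ARFGAP3 models on the minus strand of chr22:42796505-42857385. Exon 13 (132 nt, chr22:42810813-42810944) was skipped in 2 of 3 and 4 of 9 models in HEK-293T and in 2 of 6 and 1 of 10 in HT-1080, differences of -22.2 and -23.3 points on few models. Counting each distinct chain of introns once, these were -16.7 and -8.89 points. The last intron, chr22:42797606-42799038, was joined in 8 of 9 and 8 of 10 depleted models and in all siNegative ones. No model that spans the internal exons lacked 3 or more of them in any pool, against the 11 of 17 of ARFGAP2 in depleted HEK-293T.

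Among the other genes of the pathway, the calls differed by line, a difference that was not tested for the lists. Of 9 subunits of coatomer, the COPI coat, all 9 rose in HT-1080 (edgeR quasi-likelihood, adjusted p of 0.05) with a median log2 fold change of 0.59. Of all genes tested there, 32.7% rose and 32.6% fell, and the median was 0.01. COPG2, the paralogue of the gamma subunit, went from 16.2 ± 0.754 to 28.9 ± 1.95 CPM (SD, n = 3), and COPZ2, a zeta subunit, from 3.03 ± 0.830 to 7.42 ± 0.136 CPM in HT-1080. In HEK-293T none of the 9 passed, where 5.12% of all genes rose and 4.88% fell. Without the deviating library 5 rose and 3 fell, where 30.5% of all genes rose and 31.3% fell, so the direction common to the subunits in HT-1080 was not found in HEK-293T.

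Of 13 receptors and cargo adaptors of COPI vesicles, 11 rose and none fell in HT-1080 (median log2 fold change 0.24), while in HEK-293T 1 fell and none rose, or 5 rose and 4 fell without the deviating library. The shares over all genes were 32.7% rising and 32.6% falling in HT-1080. In HEK-293T they were 5.12 and 4.88%, and 30.5 and 31.3% without that library. TMED9, a p24 family cargo receptor, went from 158 ± 6.93 to 268 ± 2.65 CPM in HT-1080 (SD, n = 3; log2 fold change 0.70, edgeR quasi-likelihood adjusted p = 9.73e-07). KDELR3, which returns proteins with a KDEL signal to the endoplasmic reticulum, rose in HT-1080 by 0.49 (edgeR adjusted p = 1.17e-04) and had a log2 fold change of -0.54 in HEK-293T (edgeR adjusted p = 0.0978), where it passed without the deviating library (-0.72, edgeR adjusted p = 3.53e-11).

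Of 7 ARF and ARF-like GTPases, none rose and 4 fell in HT-1080, and none passed in HEK-293T (1 rose and 4 fell without the deviating library). The 4 of 7 in HT-1080 compare with 65.3% of all genes called there, where 32.7% of all genes rose and 32.6% fell. In HEK-293T 5.12% of all genes rose and 4.88% fell, or 30.5 and 31.3% without the deviating library. ARF6, which acts at the plasma membrane, fell in HT-1080 from 266 ± 3.52 to 198 ± 4.08 CPM (SD, n = 3; log2 fold change -0.49, edgeR quasi-likelihood adjusted p = 3.54e-06). ARL1, a GTPase of the trans-Golgi, fell there too, with a log2 fold change of -0.34 (edgeR adjusted p = 8.35e-05). Of 10 guanine nucleotide exchange factors, which load ARF with GTP, 4 rose and 3 fell in HT-1080. These 7 of 10 are near the share of all genes there. In HEK-293T 1 exchange factor rose, and without the deviating library 5 rose and 4 fell. Over all genes, 10.0% were called in HEK-293T and 61.8% there without that library. IQSEC2 rose in HT-1080 from 21.1 to 44.7 CPM (log2 fold change 1.02, edgeR adjusted p = 7.93e-07), and PSD4 rose in HEK-293T from 2.05 to 4.03 CPM (0.95, edgeR adjusted p = 0.0108, and 0.94 without the deviating library) and fell in HT-1080 (-0.32, edgeR adjusted p = 5.44e-04).

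Among the other ArfGAP genes, 15 of 17 were tested in HT-1080, of which 1 rose and 8 fell, and 16 in HEK-293T, of which only ASAP3 passed. ASAP3 fell from 12.6 to 7.70 CPM (log2 fold change -0.73, edgeR quasi-likelihood adjusted p = 0.0229, and -0.81 without the deviating library). Without that library 5 rose and 5 fell. Over all genes, 65.3% were called in HT-1080, 10.0% in HEK-293T and 61.8% in HEK-293T without that library. The share of these genes called, in either direction, is thus near that of all genes. By direction, 32.7% of all genes rose and 32.6% fell in HT-1080, beside the 1 and 8 of 15 here. AGAP2 fell in HT-1080 (-0.34, edgeR adjusted p = 0.0144), and in HEK-293T had a log2 fold change of -0.49 (edgeR adjusted p = 0.231), or -0.72 without the deviating library (edgeR adjusted p = 4.63e-04). Transcript usage was called (limma diffSplice) in 1 of 16 other ArfGAP genes in HEK-293T, AGAP3, in 10 of 16 without the deviating library, and in 5 of 14 in HT-1080. It was called in 1 of 8 coatomer subunits in HEK-293T, 6 without that library, and 2 in HT-1080. Of 10 exchange factors it was called in 2 in each line (3 in HEK-293T without that library), among them GBF1 in both. Of 7 GTPases it was called in 0 in HEK-293T, 3 without that library, and 2 in HT-1080. Of 13 receptors and cargo adaptors it was called in 0 in HEK-293T, 4 without that library, and 4 in HT-1080. Over all genes tested these shares were 9.59% in HEK-293T, 41.6% without the deviating library and 21.2% in HT-1080.

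The transcripts of other genes whose percent of gene ran most like that of ARFGAP2 ENST00000627920.2 over the 12 libraries were sought among 37886 transcripts. The 5 highest Pearson correlations, a description that follows the 4 groups and carries no p, were those of BCL2L12 ENST00000698561.1 (r = 0.994), SAT1 ENST00000489394.5 (0.989), SYVN1 ENST00000307289.10 (0.989), TMEM214 ENST00000460665.1 (0.987) and PGLS ENST00000595782.1 (0.987). The libraries share their group and depth within a line. SYVN1 ENST00000307289.10 took 0.502 and 14.5% of its gene in HEK-293T and 0.314 and 2.84% in HT-1080, siNegative and siHNRNPH1. PGLS ENST00000595782.1 took 2.07 and 17.7%, and 1.25 and 4.21%. TMEM214 ENST00000460665.1 took 7.42 and 23.6%, and 6.68 and 9.38%. In all 5 the highest group mean was HEK-293T siHNRNPH1, followed by HT-1080 siHNRNPH1, as in ARFGAP2. Choice by correlation with the variant favours that order, so it is no separate finding. None reached the share of the ARFGAP2 variant in depleted HEK-293T.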

How the data were processed

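Expected counts per transcript were estimated by the authors with RSEM, per the submitters' processing notes, which also name GRCh38.p13. The RSEM version, aligner, annotation release and strandedness are not given in the sources used here. The deposited expected counts, in 1 table per line, were matched to samples by column name, summed per gene and rounded. The deposited exon start and end positions of IsoSeq models are another kind of value, a coordinate, used as given.

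Genes past filterByExpr were scaled by TMM and tested with edgeR 4.0.16 (quasi-likelihood, robust, two-sided) on the 6 libraries of a line. The interaction was fitted to all 12, and the control comparison to the 6 siNegative libraries. Usage was tested with limma 3.58.1 (voom, diffSplice, Simes) on transcripts past the same filter. Adjusted p-values are Benjamini-Hochberg over the whole table, with a threshold of 0.05. Alternatives used DESeq2 1.42.0, other scalings, no filter, diffSpliceDGE, the replicate number as a block, and each replicate left out. The steps were tested on simulated data.

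Named transcripts hold at least 5% of their gene in a group or the smallest usage p in a line. Named junctions are in at least 10% of models of a pool and move by at least 10 points the same way in both lines. For like patterns, transcripts had a mean of at least 50 expected counts over the 12 libraries, and genes a mean of at least 500 in each line. A transcript could thus pass on its HEK-293T counts alone. From each pathway list, the 2 genes called in either line with the largest absolute log2 fold change, averaged over both lines, are named, and AGAP3, GBF1 and the exons of ARFGAP1 were named after their values were seen. Members and lists were chosen with earlier results of these data known. The labels call the replicates biological. RefSeq (GRCh38.p14) served for neighbouring gene names only.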

Additional observations from a re-analysis of the deposited data

How the results depend on the processing

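Of 217 alternative values of 34 results, 187 kept their direction and side of the threshold (or, for values without a test, moved by less than 1 SD or SE or, for IsoSeq shares, less than the counting interval), 5 lost the call, 4 gained it, 18 changed sign and 3 moved by more. Leaving out replicate 1 of HEK-293T siHNRNPH1 gave changes of sign that passed the threshold: the ARFGAP1 log2 fold change in HEK-293T became -0.35 and its difference of response between the lines 0.31. The other changes of sign were of values that passed the threshold neither before nor after. The ARFGAP1 log2 fold change was -0.022 in HEK-293T and -0.013 in HT-1080 with no filter on low counts, and -0.0041 in HT-1080 with all 12 libraries in one fit. The difference of response by library size alone was 0.053 for ARFGAP1 and 0.038 for ARFGAP3. With 1 replicate left out at a time, the ARFGAP1 values ranged from -0.35 to 0.18 in HEK-293T, from -0.022 to 0.040 in HT-1080 and from -0.28 to 0.31 for the difference of response, and the ARFGAP3 log2 fold change from 0.065 to 0.176 in HEK-293T, and in HT-1080 from 0.089 to 0.148. The adjusted p for ARFGAP1 usage in HT-1080 ranged from 0.00106 to 0.183 in this way (limma diffSplice), and was 0.910 with edgeR diffSpliceDGE. That for ARFGAP3 usage ranged from 0.182 to 0.926 in HEK-293T, and in HT-1080 from 0.286 to 0.994, with the direction of the leading transcript changing in 3 of the 6 in each line. ARFGAP3 usage in HT-1080 over transcripts of at least 5% of the gene could not be fitted. Scaling by library size alone gave 0.19 for ARFGAP3 in HT-1080, now past the threshold, and 0.053 between the control lines, no longer past it. The cause was not tested. Values without a test that moved were the ARFGAP2 log2 fold change in HEK-293T without that replicate (-1.18) and in HT-1080 by library size alone (-0.89), and the HT-1080 difference of ENST00000627920.2 over transcripts of at least 5% of the gene (14.0 points).

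With a replicate block the ARFGAP1 log2 fold change was -0.059 in HEK-293T, a change of sign, and 0.0067 in HT-1080, that of ARFGAP3 0.12 in each, and the usage adjusted p of ARFGAP1 4.54e-06 and 0.0215 (limma), so no call changed for the members. Over all genes the block took the edgeR gene-level calls in HEK-293T from 1997 to 0 (4169 at an unadjusted p under 0.05; DESeq2 without the block called 3982) and the interaction from 4034 to 2535. Same-numbered libraries correlated at 0.195, 0.159 and 0.073 in HEK-293T and 0.159, 0.246 and 0.055 in HT-1080. Differently numbered ones correlated at -0.211 to 0.128 in HEK-293T and at -0.207 to 0.133 in HT-1080, mostly lower. The main fits used no pairing, and these values do not settle whether the numbers pair libraries. Depth limits the ARFGAP2 variant in HT-1080 controls (17.1 to 34.01 counts), and the number of models limits every IsoSeq share.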
